A study of Mus musculus with 2 samples.

Results

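The AP-1 and immediate early factors described here were 10 genes, Fos, Fosb, Fosl1, Fosl2, Jun, Junb, Jund, Atf3, Egr1 and Ier2, chosen by name among the 20198 genes of a single-cell RNA count table of mouse cornea. Their counts were read in each deposited cell cluster and in each of 2 libraries. UW was the unwounded cornea of 4 pooled normal mice, and W was the cornea of 4 pooled mice 24 h after the central corneal epithelium had been scraped away and treated with ofloxacin. The mice were males aged 6 to 8 weeks, their strain is not given in the sources used here, and the labels name no transgene or other treatment. Both libraries were dissociated by the same steps, a long cold dispase digestion followed by trypsin for the epithelial sheet and warm collagenase for the remaining tissue.

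AP-1 is a dimer of basic leucine zipper proteins that binds DNA. FOS family proteins (Fos, Fosb, Fosl1, Fosl2) need a JUN family partner (Jun, Junb, Jund), while JUN proteins can also pair with one another or with Atf3. Most of these genes, together with the zinc finger factor Egr1 and the nuclear protein Ier2, are immediate early genes: they are switched on within minutes of growth factor, stress or injury signals without new protein synthesis, and their short-lived RNA soon declines. In stratified epithelia AP-1 is known for its part in keratinocyte proliferation, differentiation and migration. The same genes are also known to be induced while tissue is being dissociated, so levels set in the eye and levels set during dissociation cannot be told apart here. The authors also removed cells with a dissociation signature. The genes of that signature are not named in the sources used here and may include these. What that removal did to the levels was not tested.

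On the GRCm38 annotation (GENCODE M21), Fos lies at chr12:85473890-85477273, Fosb at chr7:19302696-19310051, Jun at chr4:95049034-95052222 and Atf3 at chr1:191170296-191218039, all protein coding. Jun, Junb, Jund and Ier2 are single-exon genes. Jun overlaps the antisense gene Junos, Junb overlaps Prdx2, and Fosl1 overlaps Ccdc85b, so reads of these pairs may have been shared in the counting. RefSeq promoter sequence was matched for 7 of the 10 genes. The 250 bases before the start are shown for Fos, the gene with one of the largest differences below, and for the other FOS family genes and Jun that hold a match to a searched motif. Letters are on the gene's strand, 5' to 3', build GRCm38.p6, with matches in capitals. The windows are chr12:85473640-85473889 (plus strand), chr7:19310046-19310295 (minus), chr5:32136222-32136471 (plus) and chr4:95052223-95052472 (minus).
Fos: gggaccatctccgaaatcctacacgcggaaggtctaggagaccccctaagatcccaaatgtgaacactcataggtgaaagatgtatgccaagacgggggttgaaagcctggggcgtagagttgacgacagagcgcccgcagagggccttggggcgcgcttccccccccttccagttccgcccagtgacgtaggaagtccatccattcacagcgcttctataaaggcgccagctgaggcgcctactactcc
Fosb: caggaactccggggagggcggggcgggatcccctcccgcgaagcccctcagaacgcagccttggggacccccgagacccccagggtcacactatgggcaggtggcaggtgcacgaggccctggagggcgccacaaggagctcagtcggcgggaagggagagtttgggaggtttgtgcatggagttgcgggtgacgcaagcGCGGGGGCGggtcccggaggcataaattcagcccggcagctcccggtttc
Fosl2: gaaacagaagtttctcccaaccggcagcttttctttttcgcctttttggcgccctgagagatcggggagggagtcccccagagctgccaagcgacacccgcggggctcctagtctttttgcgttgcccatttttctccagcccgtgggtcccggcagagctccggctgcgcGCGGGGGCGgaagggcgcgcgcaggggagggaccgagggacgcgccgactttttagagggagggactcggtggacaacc
Jun: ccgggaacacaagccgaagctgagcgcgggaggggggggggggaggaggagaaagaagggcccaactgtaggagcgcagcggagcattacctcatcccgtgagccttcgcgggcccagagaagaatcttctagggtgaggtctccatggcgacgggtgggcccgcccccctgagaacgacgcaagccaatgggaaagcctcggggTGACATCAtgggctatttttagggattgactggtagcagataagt
Both strands were searched for TGACTCA, the classical AP-1 element, TGACGTCA, the cyclic AMP response element, TGACATCA, GCGGGGGCG, an EGR-type site, and the serum response factor element by its name, the CArG box. Among 32851 promoter windows of the same length, 4.46% held TGACTCA, 1.55% TGACGTCA, 2.93% TGACATCA, 2.57% GCGGGGGCG and 1.47% a CArG box. The capitals in Jun mark TGACATCA at bases -45 to -38 from the start, and those in Fosb and Fosl2 mark GCGGGGGCG at -50 to -42 and -79 to -71. The windows of Fos, Junb, Jund and Atf3 held none of these letters. RefSeq starts are not always those of the GENCODE bounds: the Fosl2 and Atf3 windows lie inside the gene as GENCODE bounds it, and the Jund window ends before the GENCODE start without reaching it. A match is a description of the letters and says nothing of binding in these cells.

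Each UMI is 1 captured RNA molecule of a 3' kit, and levels are UMIs per 1000000 UMIs of the same group of cells (CPM), not divided by gene length. A level summed over cells cannot tell fewer cells with a gene's RNA from less RNA in each. UW comprised 16450 cells and a median of 22014 UMIs a cell, W 12417 cells and 20290 UMIs, and 52 cell barcodes occurred in both. With 1 library per condition there was no replicate and no test. The intervals are exact 95% intervals of counting error only, which UMIs pooled from many cells understate, and a value is called 2-fold higher or lower only as a description of these libraries. Of 17 deposited clusters, 12 held at least 50 cells in each library: 10 epithelial clusters (1 to 9 and 11), analysed singly and as a sum of 13501 UW and 8507 W cells, and stromal clusters 0 and 10. The markers matched these names, with Krt12 at 26753 CPM in the UW epithelial sum and the 5 stromal markers at a summed 74554 CPM in UW and 38724 CPM in W cluster 0. Clusters 6 and 7 carried the highest superficial markers, cluster 9 the highest limbal markers of the epithelium in UW, cluster 8 mitotic and cluster 11 S phase markers. A cluster number did not hold the same cell state in both libraries. In clusters 1 to 4 the 6 basal markers summed to 1798 to 7058 CPM in UW and 17758 to 21514 CPM in W, and Krt14 in the epithelial sum was 514 and 11192 CPM. Superficial clusters 6 and 7 shifted as well: their basal markers were 4106 and 1045 CPM in UW and 14485 and 5925 CPM in W, and their superficial markers 47752 and 59425 CPM in UW and 24858 and 30856 CPM in W. In stromal cluster 0 the limbal list (Gpha2, Ifitm3, Wfdc18) was 1788 CPM in UW and 9783 CPM in W. The part of these shifts in the differences given here was not tested.

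Fos and Egr1 were lower in W in all 12 clusters, as was Jund except under median-of-ratios scaling in cluster 10, Jun and Atf3 were lower in some clusters and higher in others, and Fosl1 was 2-fold higher in 4 clusters. Among cells of 15000 to 25000 UMIs, Fosl1 was so in 2 of 11 clusters and Atf3 in 3. In the epithelial sum 3 of the 10 genes were at least 2-fold lower in W, where 8.77% of all 16439 genes tested were, and 0 were 2-fold higher, where 21.8% of all genes were. In stromal cluster 0, 5 were 2-fold lower, against 9.67% of all genes, and 1 was higher, against 7.34%. In stromal cluster 10, 0 were lower, against 6.63%, and 1 was higher, against 4.97%. Over the 120 gene and cluster pairs, 30 were 2-fold lower and 7 higher, where 9.8% and 12.7% of all such pairs were. The 10 genes together made up 1.17% of epithelial UMIs in UW and 0.848% in W, and 1.19% and 0.440% of those of cluster 0. The median of all genes lay off 0 in some groups, at a log2 ratio of 0.22 in the epithelial sum, -0.15 in cluster 0 and 0.26 in cluster 7. Among genes of at least 100 CPM it lay at 0.02, 0.00 and -0.06.

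**Figure D1:**
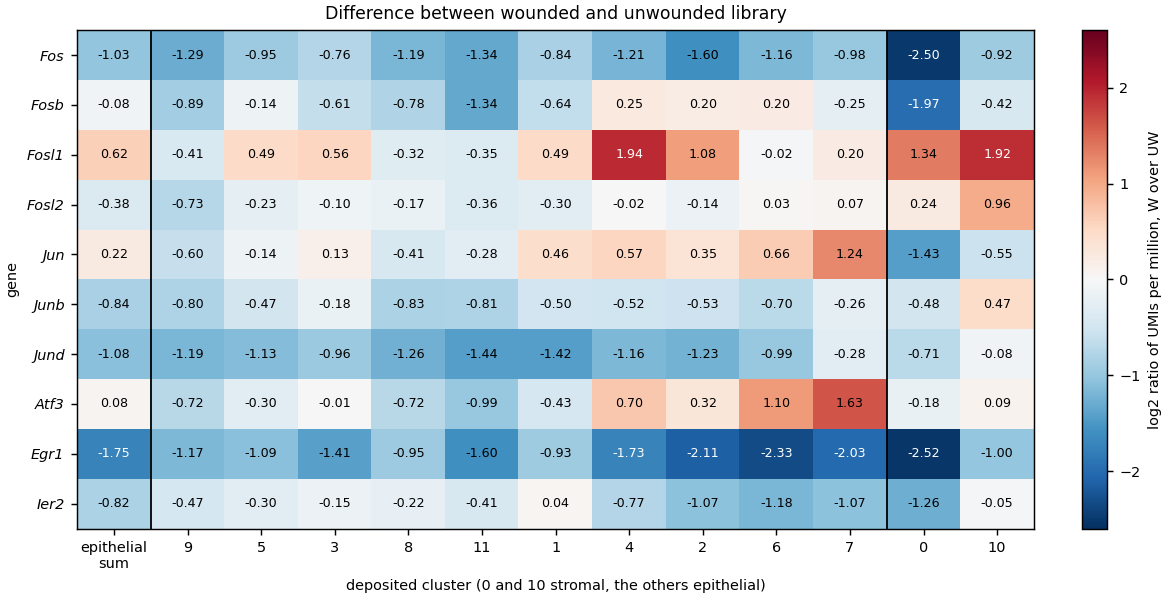
Log2 ratio of CPM, W over UW, for each of the 10 genes (vertical axis) in the epithelial sum and in each of the 12 clusters (horizontal axis), with the value printed in each field and coloured from blue (lower in W) to red (higher in W). Fos, Jund and Egr1 are blue throughout, although Jund in cluster 10 crosses 0 under another scaling, and Jun and Atf3 turn from blue in cluster 9 to red in clusters 6 and 7.

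Fos, the founding FOS gene and an early responder to serum, stood at 1711 CPM (95% interval 1707 to 1715) in UW epithelium and 839 CPM (835 to 843) in W, a log2 ratio of -1.03. That call ended under the same 3 settings named for Jund below, at -0.94 without mitochondrial and ribosomal protein genes, -0.82 as the mean of per-cell CPM and -0.36 in cells of 15000 to 25000 UMIs. In cluster 0 it was 3377 CPM in UW and 597 CPM in W, a log2 ratio of -2.50 (-2.52 to -2.48) and, with Egr1, the largest difference among the 120 pairs. It was lower in W in 12 of 12 clusters, at least 2-fold so in 7, from -0.76 in cluster 3 to -2.50 in cluster 0. Restricted to cells of 15000 to 25000 UMIs, it was 2-fold lower in 3 of 11 clusters, the calls of clusters 4, 8, 9 and 11 having ended at -0.89, -0.40, -0.36 and -0.51. In UW its level ran from 3377 CPM in cluster 0, 2785 in cluster 10 and 2718 in limbal cluster 9 down to 1120 in superficial cluster 7, and the intervals of clusters 10 and 9, 2 and 4, and 11 and 8 overlapped. In W the stromal cluster 0 had moved from the top of that order to the last but one of the 12, with only cluster 7 lower at 569 CPM, while cluster 10 kept 1473 CPM. The W intervals of clusters 0 and 6 overlapped. After each cell was thinned to 5000 UMIs, the median cell of cluster 0 held 15 Fos UMIs in UW but 2 in W. Cells with any Fos UMI made up 99.2% and 81.7% of cluster 0 at that depth, against 99.5% and 97.4% before thinning, and 51 UW and 11 W cells were too shallow to enter.

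Fosb, a close relative of Fos whose short splice form lacks part of the activation domain, varied widely by cluster. In stromal cluster 0 it was 1727 CPM in UW and 440 CPM in W, a log2 ratio of -1.97. Over the epithelial sum the values were 430 and 406 CPM, a ratio of -0.08. It was lower in 9 of 12 clusters, 2-fold so in cluster 0 and in S phase cluster 11 (487 and 192 CPM), and above 0 in clusters 4, 2 and 6, by 0.25, 0.20 and 0.20. In cells of 15000 to 25000 UMIs the epithelial sum turned to 0.48, cluster 11 was at -0.70 in place of -1.34, and 6 of 11 clusters were below 0. Stromal cluster 10 was at -0.42, between epithelial clusters 9 and 8 (-0.89 and -0.78) and the epithelial sum.

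Fosl1, which encodes Fra-1, a FOS protein without a strong activation domain that is known from migrating cells, had the lowest counts of the set. Over the epithelium it stood at 33.9 CPM in UW and 52.1 CPM in W, a log2 ratio of 0.62 (0.58 to 0.66). It was 2-fold higher in W in 4 clusters: 4 (18.4 and 70.3 CPM, 1.94), 10 (5.78 and 21.9 CPM, 1.92), 0 (7.17 and 18.2 CPM, 1.34) and 2 (26.5 and 56.0 CPM, 1.08). It was lower in W in the mitotic, limbal and S phase clusters 8, 9 and 11, by -0.32, -0.41 and -0.35, and it was also just below 0 in cluster 6. In cells of 15000 to 25000 UMIs the ratios of clusters 8 and 11 turned to 0.27 and 0.58, and cluster 9 stayed at -0.32 there but was 0.18 (-0.32 to 0.67) in cells of 10000 to 15000 UMIs. Cells with a Fosl1 UMI in cluster 0 were 6.67% in UW and 21.8% in W, and 3.36% and 6.21% once thinned to 5000 UMIs, so the gap in that share was smaller at equal depth. Fosl2, which encodes the related Fra-2, differed less. It was 166 and 128 CPM in the epithelial sum, passed 2-fold in 0 of 12 clusters, and came closest in cluster 10 with 76.9 CPM in UW and 150 CPM in W, a ratio of 0.96 that was 1.05 with either TMM or median-of-ratios scaling, past 2-fold. Its level was graded through the epithelium in both libraries, highest in superficial cluster 7 (235 CPM in UW, 247 in W) and next in cluster 6.

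**Figure D2:**
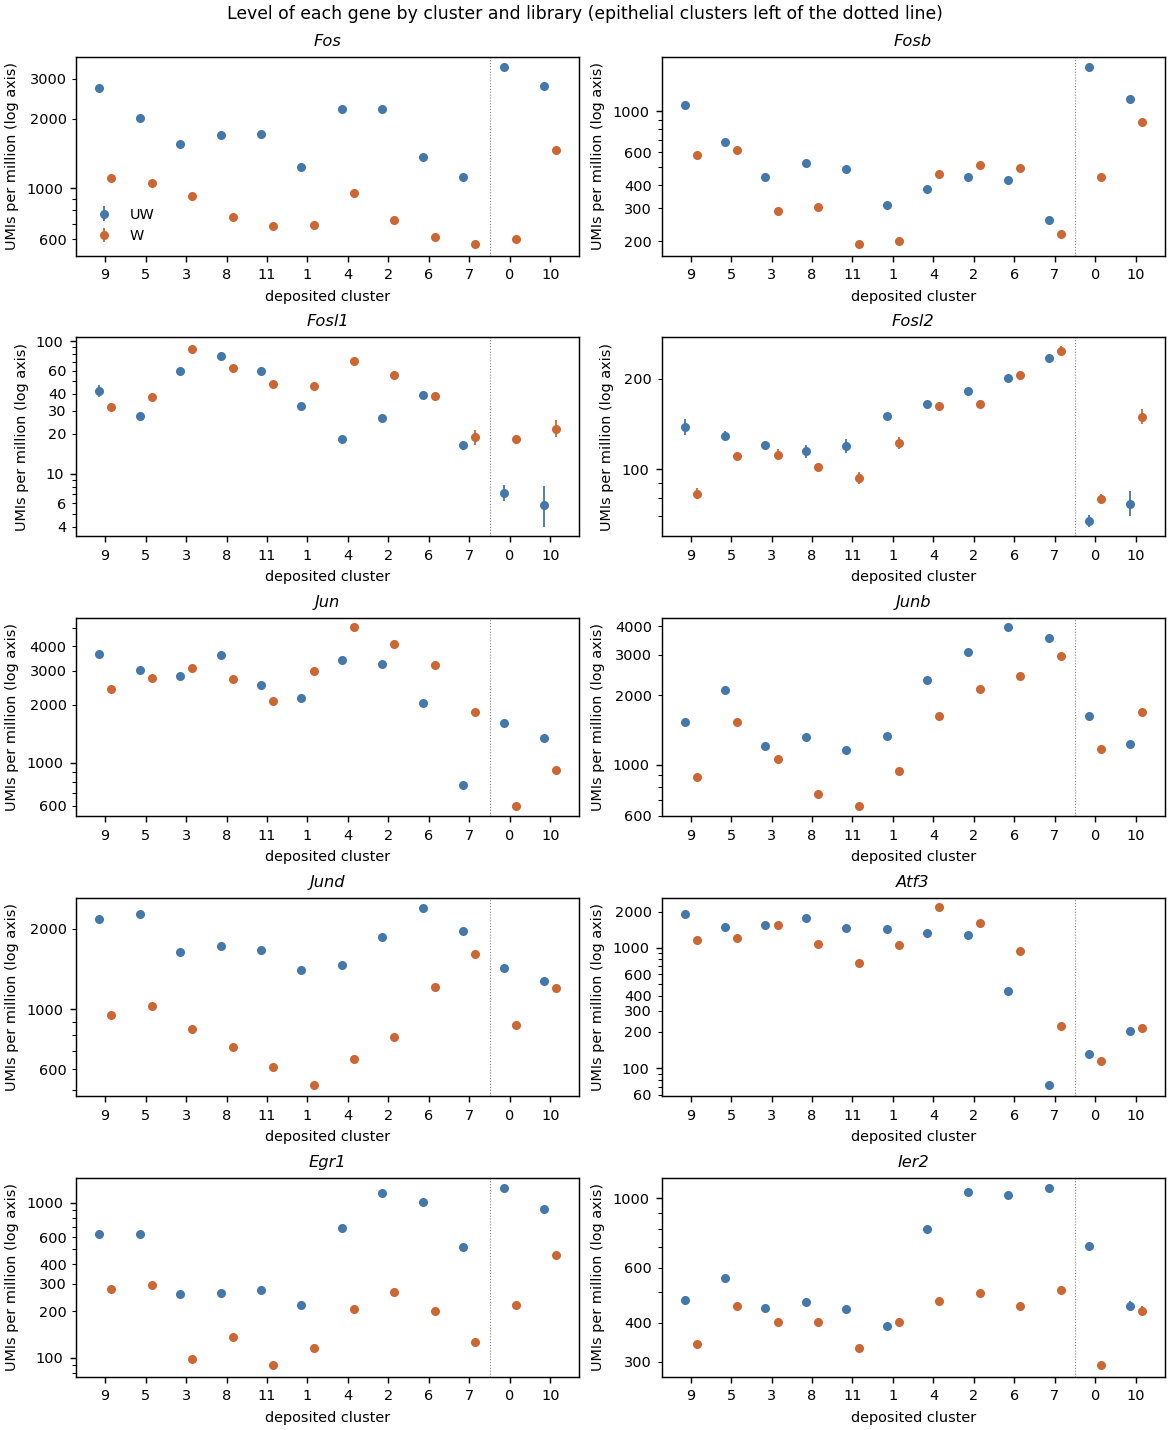
Level of each gene in CPM (vertical axis, logarithmic) in the 12 clusters (horizontal axis; epithelial clusters left of the dotted line, stromal clusters right) in UW (blue) and W (orange), with exact 95% counting intervals that are mostly smaller than the points. Fos and Egr1 are lower in W in every cluster, and Fosl2 and Junb are highest in clusters 6 and 7.

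Jun, the main partner of FOS proteins and a strong activator, went opposite ways in the superficial epithelium and the stroma. In cluster 7 it was 771 CPM in UW and 1825 CPM in W, a log2 ratio of 1.24 (1.22 to 1.27). In cluster 0 it was 1616 CPM in UW and 599 CPM in W, a ratio of -1.43. The epithelial sum held 2587 and 3023 CPM, a ratio of 0.22. By cluster, Jun was higher in W in 6 (7, 6, 4, 1, 2 and 3) and lower in 6 (0, 9, 10, 8, 11 and 5). In cells of 15000 to 25000 UMIs clusters 5, 8 and 11 turned, to 0.42, 0.47 and 0.63, and Jun was above 0 in 9 of the 11 clusters with enough cells, the exceptions being 0 and 9. In UW its highest level was in limbal cluster 9 (3650 CPM) and its lowest in cluster 7, a 4.73-fold span over the 12 clusters. In W the highest was cluster 4, with 5027 CPM. With scaling factors by TMM or by the median of ratios, methods that set most genes near 0, the value of cluster 7 was 0.99 and 0.98, just short of 2-fold.

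Junb, which in many settings restrains Jun, was lower in W in 11 of 12 clusters but by less than 2-fold in each. It was 2417 and 1346 CPM in the epithelial sum, a ratio of -0.84. That value was past 2-fold with TMM factors, at -1.05. By UMI band it was -0.20 in cells under 10000 UMIs, 0.35 at 10000 to 15000 and -0.16 at 15000 to 25000. It was -1.05 at 25000 to 35000 and -1.48 in cells of 35000 or more. The one cluster above 0 was stromal cluster 10, with 1227 CPM in UW and 1700 CPM in W, a ratio of 0.47. Its level was highest in superficial clusters 6 and 7 in both libraries, 3967 and 3544 CPM in UW. Jund, the JUN gene that is expressed more steadily and is not a classical early gene, was 1817 and 859 CPM in the epithelial sum, a ratio of -1.08 (-1.09 to -1.07), which was -0.99 with totals that leave out mitochondrial and ribosomal protein genes, -0.95 as the mean of per-cell CPM and -0.81 in cells of 15000 to 25000 UMIs. It was lower in 12 of 12 clusters, though the -0.08 of cluster 10 became 0.0047 under median-of-ratios scaling. It was 2-fold lower in 7 clusters, all of them epithelial, and at -0.28 in superficial cluster 7. The calls of clusters 5, 8 and 9 ended in cells of 15000 to 25000 UMIs, at -0.75, -0.80 and -0.68.

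The makeup of both families therefore differed. Of the UMIs of the 3 JUN genes in the epithelial sum, Jun held 37.9% in UW and 57.8% in W, Jund 26.6% and 16.4%, and Junb 35.4% and 25.7%. In cluster 0 the share of Jun was instead 34.6% in UW and 22.7% in W, and that of Junb 34.9% and 44.3%. Of the 4 FOS genes in the epithelial sum, Fos held 73.1% in UW and 58.9% in W, Fosb 18.4% and 28.5%, and Fosl1 1.45% and 3.66%. The FOS family as a whole was 2341 and 1425 CPM in the epithelial sum, and 5179 and 1136 CPM in cluster 0.

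**Figure D3:**
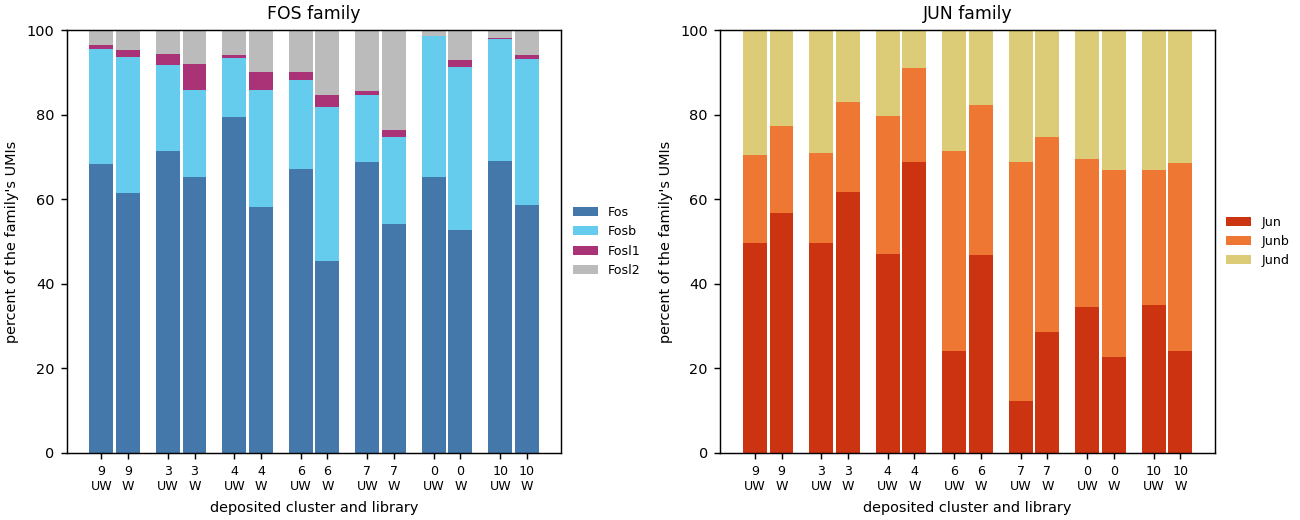
Share in percent of the UMIs of the 4 FOS genes (left) and the 3 JUN genes (right) held by each gene, as stacked bars for 7 clusters in UW and W. The share of Fos is smaller in W in each of the 7 clusters, and the share of Jun is larger in W in epithelial clusters 9, 3, 4, 6 and 7 and smaller in stromal clusters 0 and 10.

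Atf3, a stress-induced factor that often represses and that pairs with JUN proteins, differed widely by cluster. In UW it ran from 1902 CPM in limbal cluster 9 to 71.9 CPM in cluster 7, with stromal clusters 10 and 0 between them at 202 and 131 CPM. The share of free RNA in epithelial cluster 7 cannot be read from Krt12, so its low level was not set against a background. It was 2-fold higher in W in superficial clusters 7 (71.9 and 222 CPM, 1.63) and 6 (438 and 940 CPM, 1.10), and lower in clusters 11, 9, 8, 1 and 5, by -0.99, -0.72, -0.72, -0.43 and -0.30. In cells of 15000 to 25000 UMIs these were -0.06, -0.22, 0.36, 0.05 and 0.16, and cluster 4, at 0.70 over all cells, was past 2-fold at 1.11. Over the epithelium it was 1154 and 1218 CPM, a ratio of 0.08 that became -0.13 with TMM factors. In cluster 0 its level was 131 CPM in UW and 115 CPM in W. Krt12, an epithelial keratin that stromal cells lack, stood there at 5.81% and 5.96% of its epithelial level. Free epithelial RNA in that proportion would carry 67.0 and 72.6 CPM of Atf3, so these stromal levels were 1.95 and 1.59 times what it would bring. The same reckoning put Fos in UW cluster 0 at 34.0 times and Egr1 at 33.8 times the carried level.

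Egr1 (chr18:34859823-34864984), a zinc finger factor driven by serum response elements, had the lowest ratio of the set in the epithelial sum over all cells, though not among cells of 15000 to 25000 UMIs, where it was -0.75 and Jund -0.81. It stood at 635 CPM (633 to 638) in UW and 189 CPM (188 to 191) in W, a log2 ratio of -1.75. It was lower in W in 12 of 12 clusters and 2-fold so in 9, with -2.33 in cluster 6, -2.11 in cluster 2 and -2.52 in cluster 0 (1248 and 218 CPM). In cells of 15000 to 25000 UMIs the calls of clusters 5, 9 and 11 ended, at -0.39, -0.41 and -0.99, and cluster 5 was at -0.75 as the mean of per-cell CPM. At 5000 UMIs a cell, 70.7% of UW and 47.2% of W epithelial cells held an Egr1 UMI. Ier2, a small nuclear protein of the early response, was 746 and 421 CPM in the epithelial sum, a ratio of -0.82 that was -1.03 with TMM or median-of-ratios factors, past 2-fold, and -0.32 in cells of 15000 to 25000 UMIs. It was 2-fold lower in clusters 0, 6, 7 and 2, the last at -1.07 and, with TMM and median-of-ratios scaling, at -0.95 and -0.93, and within 0.50 of 0 in clusters 1, 3, 5, 8, 9, 10 and 11. Its UW level was highest in superficial cluster 7, cluster 2 and superficial cluster 6, at 1075, 1045 and 1026 CPM.

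**Figure D4:**
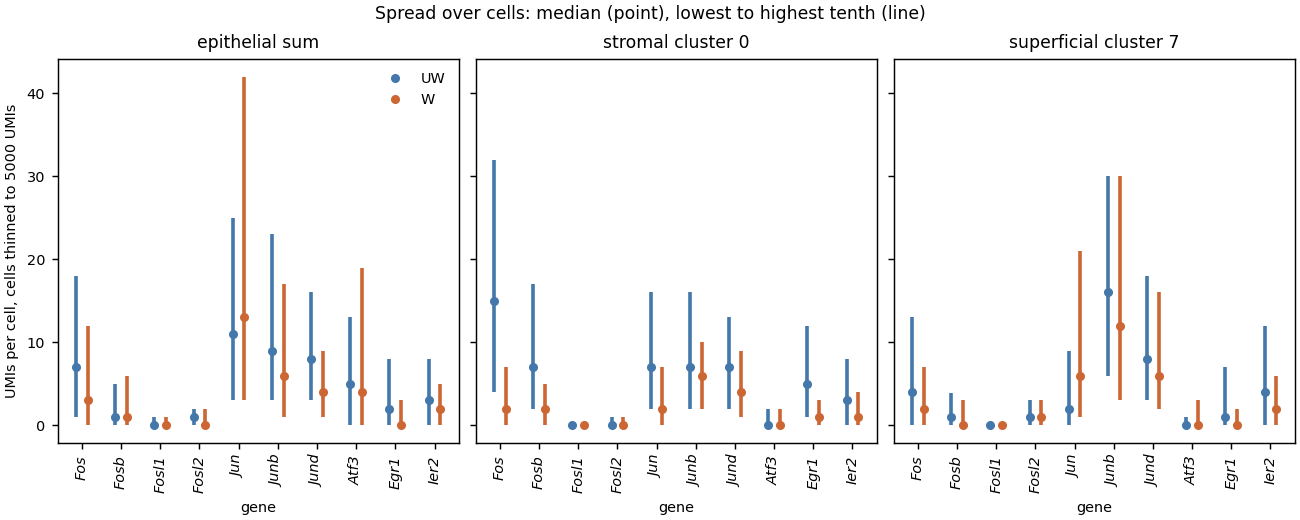
UMIs per cell of each gene after every cell was thinned to 5000 UMIs (vertical axis), for the epithelial sum, stromal cluster 0 and superficial cluster 7 in UW (blue) and W (orange), with the median as a point and a line from the 10th to the 90th percentile of cells. In cluster 0 the median Fos count is 15 in UW and 2 in W, and in the epithelial sum the 90th percentile of Jun is 25 in UW and 42 in W.

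Cells of 1 library also differed among themselves. In the epithelial sum at 5000 UMIs a cell, the 90th percentile of Jun was 25 UMIs in UW and 42 in W while the 10th was 3 in both, and the 90th percentile of Atf3 was 13 and 19 while its medians were 5 and 4. Over these pooled cells the distribution of Jun and Atf3 was thus wider in W at the upper end. That of Fos was lower throughout, with medians of 7 and 3 and 90th percentiles of 18 and 12. The clusters were of unlike size in the libraries, so this spread also holds differences among clusters. Cluster 1 held 2461 UW and 591 W cells, cluster 8 held 535 and 1332, and cluster 9 held 521 and 956. The part of this makeup in the spread was not tested.

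The number of UMIs in a cell went with the level of several of these genes and differed between the libraries, so cells were also compared within bands of UMI count, a choice made after the data had been seen. Median UMIs were 24704 in UW and 35499 in W in cluster 8, 13944 and 24009 in cluster 9, and 11853 and 17588 in cluster 0. In W cluster 9, Fos was 3041 CPM in cells of 10000 to 15000 UMIs and 519 CPM in cells of 35000 or more. Across 41 combinations of cluster and band with at least 50 cells in each library, Fos was lower in W in 40, Egr1 in 40 and Jund in 39. The exceptions were cluster 5 in cells of 10000 to 15000 UMIs for Fos and Egr1, at 0.60 and 0.85, and single bands of clusters 7 and 10 for Jund. Fos was 2-fold lower in 21 of the 41, Egr1 in 27 and Jund in 16. The share of all genes 2-fold lower within the bands was not computed. Jun was lower in W in 15 of the 41, Atf3 in 14 and Fosl1 in 10.

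The sizes depended on the band. In cells of 15000 to 25000 UMIs, 0 of the 10 genes remained 2-fold lower in the epithelial sum: Fos was at -0.36 in place of -1.03, Egr1 at -0.75 in place of -1.75 and Jund at -0.81 in place of -1.08. In the same band Jun in the epithelial sum was 2329 CPM in UW and 4208 CPM in W, a ratio of 0.85 in place of 0.22, and Atf3 was at 0.55 in place of 0.08. In epithelial cells of 35000 UMIs or more, Fos was at -1.58, Jund at -1.35, Jun at -0.38 and Atf3 at -0.36. In cluster 0 the same 5 genes, Fos, Fosb, Jun, Egr1 and Ier2, were 2-fold lower in the 15000 to 25000 band, with Fos at -2.47 and Egr1 at -2.66. Below that band, with most UW cells of the cluster, Ier2 was short of 2-fold at -0.85 (under 10000 UMIs) and -0.92 (10000 to 15000), and the other 4 were past it. Fosl1 in cluster 0 at 15000 to 25000 UMIs was 0.77 in place of 1.34. In cluster 7, Jun was above 0 in all 5 bands, from 0.86 to 1.75, and Atf3 from 1.05 to 1.60. What sets a cell's UMI count was not tested.

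**Figure D5:**
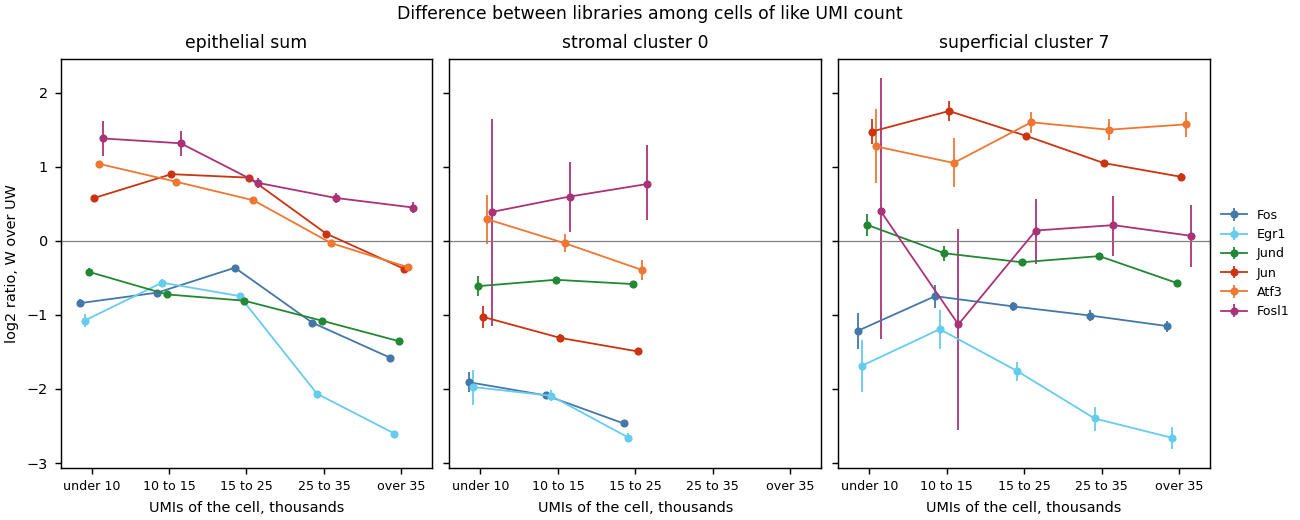
Log2 ratio of W over UW (vertical axis) of 6 genes among cells of like UMI count (horizontal axis, bands of UMIs per cell) in the epithelial sum, stromal cluster 0 and superficial cluster 7, with exact 95% counting intervals; bands under 50 cells in either library are left out. Fos and Egr1 stay below 0 in each band drawn, while Jun and Atf3 in the epithelial sum go from above 0 in cells of 10000 to 15000 UMIs to below 0 in cells of 35000 or more.

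Clusters 13 to 16 were nearly all of W, so the genes were measured there in W alone. By summed markers, cluster 13 held neutrophil genes at 34341 CPM, cluster 15 monocyte and macrophage genes at 22235 CPM, cluster 14 a mixture of these at 7743 CPM with dendritic genes at 4299 and epithelial genes at 12821 CPM, and cluster 16 T and NK cell genes at 2783 CPM. Junb stood at 2105, 1589, 1546 and 2034 CPM in clusters 13, 14, 15 and 16. These were 5.39, 2.41, 11.4 and 8.87 times the level that epithelial free RNA in the proportion of Krt12 would carry. Jun in cluster 14 (1500 CPM) and cluster 16 (591 CPM) was at 1.01 and 1.15 times that level, and Atf3 in cluster 16 at 1.23 times, which does not rise above background by this measure. Atf3 in cluster 13 was 1099 CPM, 3.11 times the carried level, at a median of only 2510 UMIs a cell.

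Over the 28 cluster and library groups of at least 50 cells, the log2 levels of some members went together. Pearson's r was 0.82 for Fos and Egr1, 0.79 for Jun and Atf3, 0.76 for Fosl2 and Junb, and -0.46 for Fosl1 and Egr1. The groups share libraries, free RNA and depth, so these are descriptions. Of 11716 genes, those most like Atf3 were Rhov (0.94), Plekhg3 (0.93) and F2rl1 (0.91), and most like Junb were Cpeb4 (0.93) and Dennd1b (0.90). Those most like Fosl1 were Wnk4 (0.87) and F2rl1 (0.84). Most like Jun were Efna4, Cdc42bpg and Rab27b (0.90, 0.88 and 0.88), most like Jund were Rmnd5a, Rb1cc1 and Erbin (0.91, 0.85 and 0.85), and most like Ier2 were Ube2h, Slc12a2 and Kazn (0.88, 0.84 and 0.84). Fos had Gm20721, Tnrc18 and Sp1 (0.86, 0.86 and 0.86), Egr1 had Syap1, Fos and Lrrc8a (0.83, 0.82 and 0.82), Fosb had Abi3bp, Dmd and Gpr27 (0.83, 0.81 and 0.81), and Fosl2 had Pim1, Tsc22d4 and Irf2 (0.87, 0.86 and 0.83).

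Around AP-1, other immediate early genes were mixed. In the epithelial sum 4 of 29 were 2-fold higher in W and 5 lower, with a median of 0.10 where that of all genes was 0.22, and in cluster 0, 2 of 28 were higher and 5 lower, with a median of -0.31. These were 13.8% and 17.2% of the list in the epithelial sum, and 7.14% and 17.9% in cluster 0, beside the shares of all genes given above. Stromal cluster 10 went the other way, with 6 of 28 higher (21.4%, all genes 4.97%) and 0 lower (all genes 6.63%), and a median of 0.36 where that of all genes was -0.09. Socs3, a brake on cytokine signalling, was 243 and 69.1 CPM in the epithelial sum (-1.82) and Rhob, a small GTPase, 485 and 176 CPM (-1.46). Myc, a growth regulator, was 22.0 and 46.0 CPM there (1.07) and 9.25 and 33.6 CPM in cluster 0 (1.86), and Klf2, a factor of quiescent cells, was at 1.02 in the epithelial sum. In cluster 0 the antiproliferative Btg2 was at -1.86 and Zfp36, which speeds decay of AU-rich RNAs, at -1.70, while Gadd45a was at 1.14. The other genes past 2-fold, named after their values were seen as are the further names below, were Egr4 and Nr4a3 (higher) and Egr3, Arc and Zfp36l1 (lower) in the epithelial sum, and Egr2, Klf2 and Socs3 (lower) in cluster 0. Low among these in the epithelial sum were Egr4 (0.030 and 0.163 CPM), Nr4a3 (0.390 and 1.87 CPM) and Egr3 (2.48 and 1.12 CPM). Egr2 was 3.66 and 1.02 CPM in cluster 0.

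Of 27 other bZIP factors, 5 were 2-fold higher and 2 lower in the epithelial sum, and 4 and 0 in cluster 0. As shares, 18.5% were higher and 7.41% lower in the epithelial sum, near the 21.8% and 8.77% of all genes. In cluster 0, 14.8% were higher and 0% lower, where 7.34% and 9.67% of all genes were. Creb5 was 8.71 and 63.1 CPM in the epithelial sum (2.86) and Cebpa at 1.57, while Jdp2, a repressor that binds AP-1 sites, was 223 and 86.8 CPM (-1.36) and Atf7 at -0.71. In cluster 0 Cebpd was 91.4 and 260 CPM (1.51), Cebpb was at 0.82, Atf7 at -0.42 and Atf2 at -0.57. The rest past 2-fold were Maf, Batf and Batf3 (higher) and Bach2 (lower) in the epithelial sum, and Batf, Batf2 and Batf3 (higher) in cluster 0. The Batf genes were low. In the epithelial sum Batf was 0.081 and 0.297 CPM and Batf3 0.045 and 0.201 CPM. In cluster 0 Batf was 0.492 and 3.02 CPM, Batf2 0.352 and 2.47 CPM, and Batf3 0.176 and 0.647 CPM. Batf genes are known from immune cells. In the epithelial sum 5 of 5 neutrophil markers were higher in W. S100a8 was 0.838 and 156 CPM, S100a9 22.1 and 541 CPM, and the defining Csf3r, Cxcr2 and Retnlg were below 1 CPM in both libraries. In UW, S100a9 was 1.65 CPM in cluster 0, and neutrophil cluster 13 held 1 cell. Of the monocyte and macrophage markers in the epithelial sum, Itgam was lower in W, at 83.1 and 28.6 CPM. The others, Lyz2, Cd68, Csf1r, Fcgr1 and C1qa, were higher. The part of immune cell RNA in the Batf values was not tested. Of 18 upstream kinases and partners of the serum response factor, 1 was higher and 1 lower in the epithelial sum, 5.56% each and below the shares of all genes. In cluster 0, 0 were higher and 0 lower, where 7.34% and 9.67% of all genes were. The serum response factor gene itself, Srf, was at 0.81 in the epithelial sum, its partner Elk3 at 0.78, and the kinases Rps6ka3 and Map2k4 at -1.33 and -0.61. For cluster 0 the values were 0.49 for Elk3, 0.36 for Map2k2, -0.60 for Map2k4 and -0.87 for Map2k1. The higher gene was the kinase Mapk7.

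Of 12 feedback genes of ERK and stress kinases, 3 (25%) were 2-fold higher and 0 lower in the epithelial sum, where 21.8% and 8.77% of all genes were. In cluster 0, 1 (8.33%) was higher and 0 lower, where 7.34% and 9.67% of all genes were. The shares higher were near those of all genes. The phosphatase Dusp10, which acts on stress kinases, was 8.26 and 33.0 CPM in the epithelial sum, while Spry2 was at 0.68, Spred1 at -0.23 and Spry1 at -0.51. In cluster 0 Dusp14 was at 0.87, Dusp5 at 0.57, Dusp1 at -0.78 and Dusp6 at -0.98. Dusp2 and Dusp4 in the epithelial sum and Dusp2 in cluster 0 were the other phosphatases past 2-fold. Of 19 genes long described as AP-1 targets, 13 were 2-fold higher in W and 1 lower in the epithelial sum, with a median of 1.77; the lower one was Il6. In cluster 0, 11 of 18 were higher and 1 lower, with a median of 1.39 where that of all genes was -0.15. The higher ones were 68.4% of the list in the epithelial sum (all genes 21.8%) and 61.1% in cluster 0 (all genes 7.34%). The lower ones were 5.26% (all genes 8.77%) and 5.56% (all genes 9.67%). By the Krt12 measure above, 5 of the 11 in W cluster 0 were under 2 times the level that free epithelial RNA would carry, Areg at 1.16 times, Ivl at 0.956, Plau at 1.42, Sprr1b at 1.51 and Plaur at 1.94. Mmp3, the stromelysin, was 4.22 and 4515 CPM in cluster 0, and Timp1, an inhibitor of such proteases, 0.211 and 517 CPM. For the epithelium, Sprr1b, a cornified envelope protein, was 0.177 and 18.9 CPM, Timp1 0.123 and 11.2 CPM, and the EGF receptor ligands Ereg and Hbegf were at -0.61 and -0.85. The 5 stromal markers stood in the W epithelial sum at 0.568% to 1.11% of their cluster 0 level, which in the same proportion would carry 2.94 to 5.72 CPM of Timp1, and 25.6 to 49.97 CPM of Mmp3, which stood at 80.6 CPM there. Hbegf was at -0.84 in cluster 0. Its genes were listed from general knowledge but with earlier results of these data known, and regulation by AP-1 was not measured.

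Of 12 heat shock genes, which also respond to dissociation, 5 were 2-fold higher and 2 lower in the epithelial sum, 41.7% and 16.7% where 21.8% and 8.77% of all genes were. In cluster 0, 0 were higher and 0 lower, where 7.34% and 9.67% of all genes were. Among epithelial values, Hspe1 was at 1.69, Hspa8 at 1.31, Dnajb1 at -1.03 and Hspb1 at -1.13. In cluster 0 Hspe1 was at 0.61, Hsp90ab1 at 0.59, Hspa1a at -0.56 and Dnajb1 at -0.67. The part of dissociation in the levels of the AP-1 genes was not tested.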

How the data were processed

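Single-cell RNA was measured with a 10x Genomics 3' kit in 1 library of unwounded and 1 of wounded mouse cornea, each from 4 pooled mice. The authors made the counts with Cell Ranger 3.1.0 and Seurat, and deposited 1 table of raw UMI counts for 28867 cells with a table of cell clusters; their methods name an mm10 reference and the processing notes mm9. By those methods they removed cells with few or very many genes, a high mitochondrial share, a doublet call or a dissociation signature. The files hold fewer cells than the study states. The clusters were built from variable genes, which may include the 10 genes. A column of a first doublet run still marked 469 of the cells, which were kept. Other deposited values were not used here.

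Counts were summed per cluster and library with Python 3.11.15, numpy 2.4.6 and scipy 1.17.1. Log2 ratios were taken where both sums together held at least 20 counts, with exact conditional binomial intervals. Shares have Clopper-Pearson intervals, and a sum of 0 was set to 3 counts. Genes were called at an absolute log2 ratio of 1. All 10 members are named; of each gene list, the 2 highest and 2 lowest ratios in the epithelial sum and in cluster 0 among genes of at least 10 CPM in a library, and for each member the 3 genes of highest Pearson r of log2(CPM + 1). Some genes that this rule names are not reported here. The members and lists were chosen with earlier results of these data known. The ratio code was tested on simulated data. Scaling factors came from edgeR 4.0.16 and DESeq2 1.42.0 in R 4.3.3, for scaling alone; figures used matplotlib 3.10.9.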

Additional observations from a re-analysis of the deposited data

Results flagged for a closer look

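Jun was at least 2-fold higher in W in cluster 7, with a log2 ratio of 1.24, and at least 2-fold lower in W in cluster 0, with a log2 ratio of -1.43. It stands out because the same contrast went opposite ways in these clusters. The difference between the clusters was not tested, since each condition is 1 library. The value of cluster 7 was 0.99 with TMM factors. Cell state markers differed between the libraries in both clusters. In cluster 7 the basal markers were 1045 CPM in UW and 5925 CPM in W and the superficial markers 59425 and 30856 CPM, and in cluster 0 the stromal markers were 74554 and 38724 CPM and the limbal markers 1788 and 9783 CPM. Their part in the values of Jun was not tested.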

How the results depend on the processing

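The ratios of the 10 genes and their counts were recomputed under 8 other settings, of which equal weight per cluster applies to the epithelial sum alone, the counts under 2 other calling rules and the shares of cells at 2 thinning depths; family shares, gene lists, correlations and free RNA levels were not recomputed. With equal weight per cluster, 3 genes were 2-fold lower and the sign of Atf3 turned, to -0.12. Of the genes 2-fold lower in the epithelial sum, 3 as reported, 5 were so with TMM factors, 5 with median-of-ratios size factors, 1 with totals that leave out mitochondrial and ribosomal protein genes, 1 with the mean of per-cell CPM, 5 at a threshold of 1.5-fold and 0 among cells of 15000 to 25000 UMIs, the last chosen after the data had been seen. At 1.5-fold, 1 gene in place of 0 was higher in the epithelial sum and 55 pairs in place of 30 were lower. All genes were counted only at 2-fold over all cells. Their share at 1.5-fold, under the other settings or within UMI bands was not computed, so these counts of members stand without it. In cluster 0, 0 genes in place of 1 were higher among cells of 15000 to 25000 UMIs. Of the 40 ratios past 2-fold, 38 stayed past it with TMM factors and 40 with the stricter cell filter. In that UMI band 24 of 39 stayed past it where both libraries had 50 cells or more, and Fosl1 in cluster 10, with 46 UW cells, is not counted. Of the 40, 0 turned in sign, but of all 130 ratios 24 did so in that UMI band, 8 with the mean of per-cell CPM, 7 with median-of-ratios and 6 with TMM factors. The share of cells with an Atf3 UMI, W minus UW in percentage points, was 2.63 in the epithelial sum and -0.23 at 2000 UMIs a cell, and in cluster 0, where 69.3% of UW and 81.3% of W cells held one, it became -3.81 at 5000 and -1.67 at 2000 UMIs. The same difference turned for Jun in cluster 0 (0.20, then -10.3 and -26.1), Ier2 in cluster 0 (0.78, then -12.03 and -21.8) and Junb in the epithelial sum (0.04, then -1.97 and -7.89). The cause of the differences between UMI bands was not tested. No paired analysis was possible because each condition is 1 library and the result comes from no test. Depth limits Fosl1 most, with 33 counts in UW cluster 10.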
